A study of Mus musculus with 2 samples.

Results

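Nfkbia, Nfkbib and Nfkbie encode IκBα, IκBβ and IκBε, the classical IκB proteins, and are described here across cell types of mouse bone marrow. These 3 genes were chosen by name from the 32285 genes of the deposited matrices, and each was measured in every pool of cells. RNA of single LSK cells (Lin- Sca1+ cKit high, the marrow fraction with stem cells and their earliest progeny) was counted in 2 droplet libraries, replicates 1 and 2. Each library held wild-type (WT) cells from young mice and cells from young mice labelled IκB–, named IkBKO in the deposited cell table, told apart by hashing antibodies. Which IκB genes were altered, in which cells, on which strain, and how many mice made a pool is not given in the labels. P-values therefore measure the spread between these pools, which may be technical.

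Classical IκB proteins hold dimers of the transcription factor NF-κB in the cytoplasm through their ankyrin repeats. When a cell senses cytokines or microbial products, the IκB kinase phosphorylates them, the β-TrCP ubiquitin ligase marks them for the proteasome, and the freed dimers enter the nucleus. Nfkbia and Nfkbie are themselves switched on by NF-κB, Nfkbia fast and Nfkbie more slowly, which closes negative feedback loops, whereas Nfkbib is known as the less inducible of the classical genes. In blood formation, NF-κB is known for its part in inflammatory and myeloid responses.

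The starts of 2 of the genes hold a match to the κB consensus, the 10-letter motif that NF-κB dimers bind. They are shown because they hold a match. The stretches of 50 bases are from RefSeq (GRCm38.p6), read 5′ to 3′ in the sense of the gene, with the match in capitals. The Nfkbia stretch is chr12:55492647-55492696 on the minus strand and the Nfkbie stretch chr17:45555574-45555623 on the plus strand.
Nfkbia: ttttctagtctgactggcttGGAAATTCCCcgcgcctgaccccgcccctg
Nfkbie: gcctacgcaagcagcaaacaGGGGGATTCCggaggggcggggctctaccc
The match began 29 bases before the start of Nfkbia and 106 bases before that of Nfkbie, within a window of 250 bases before to 50 bases after the start that was searched on both strands. The window of Nfkbib (chr7:28766595-28766894, minus strand) held no match. It lies around the RefSeq start, beside a GENCODE transcript start at position 28766640. Another GENCODE transcript starts farther out, at position 28767512, and the bases before that start were not searched. Of all 32851 promoter windows of that table, 2779 (8.46%) held one, and a match describes the letters and is no measured binding site.

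The genes lie at chr12:55489410-55492647 (Nfkbia, ENSMUSG00000021025, minus strand), chr7:28758251-28767512 (Nfkbib, ENSMUSG00000030595, minus strand) and chr17:45555703-45563169 (Nfkbie, ENSMUSG00000023947, plus strand) in the GENCODE M21 annotation of mm10. Nfkbib overlaps Ccer2 and Sirt2 on the opposite strand, by 718 bases at its 3′ end and 778 bases at its 5′ end. Ccer2 had 1 UMI in all pools together. Sirt2 stood at 25.3 and 29.7 CPM in WT cells, against 21.6 and 25.9 CPM in IkBKO, and its log2 fold change of -0.12 ± 0.08 (SE) did not pass (edgeR, adjusted p = 0.32). The libraries count tags near the 3′ ends of transcripts, so a transcript cut or altered elsewhere could still be counted, and a lower count does not by itself check which gene was changed.

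The 4 pools held 3721 to 5383 cells and 42165571 to 62834572 UMIs (distinct RNA molecules) each. The median was 9963 and 6983 UMIs per WT cell and 13709 and 9641 UMIs per IkBKO cell in replicates 1 and 2, so IkBKO cells were deeper in both libraries. The libraries shared 39 barcodes among their passing cells. The other genotype's antibody tag made up 31.1% and 28.1% of tag counts in WT cells and 8.16% and 7.01% in IkBKO cells, in replicates 1 and 2. Its part in the levels below was not tested.

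Cells were gated on the UMIs of 1 gene each: stem (Mecom, at least 1 UMI), lymphoid (Dntt, at least 3), myeloid (Mpo, at least 20), megakaryocyte (Pf4, at least 3) and erythroid (Car1, at least 5). A gate is a range of counts and not a cell type, deeper cells enter it more easily, and 5.24% to 9.10% of the cells of a pool lay in 2 or more gates. In replicates 1 and 2 the stem gate held 1106 and 1761 WT cells and 738 and 1714 IkBKO cells. The lymphoid gate held 748 and 962 WT cells and 264 and 527 IkBKO cells. The myeloid gate was thin in WT, with 339 and 40 cells against 1473 and 510 in IkBKO, and the erythroid gate thinner, with 52 and 9 against 253 and 224. The megakaryocyte gate held 113 and 196 WT cells and 264 and 586 IkBKO cells. Second markers followed the gates: the myeloid gate held 2590 and 5090 CPM of Elane (neutrophil elastase) in WT, the erythroid gate 220 and 240.5 CPM of Klf1 (an erythroid transcription factor), and the stem gate 355 and 621 CPM of Hlf (a stem cell transcription factor), each above the other gates of the same library. The WT megakaryocyte gate of replicate 2 stood apart, with 30.2 CPM of Gp9 (a platelet receptor subunit) against 78.9 CPM in replicate 1, and with 527 CPM of Hlf against 91.5 CPM. The WT myeloid gate of replicate 2 held 9002 CPM of the 5 mature neutrophil markers, against 803 CPM in replicate 1 and 258 and 530 CPM in IkBKO. Values below are CPM, the UMIs of a gene scaled to a total of 1e6 UMIs in the pool, and 2 values for a genotype are replicate 1 and replicate 2 in that order. In such sums, fewer cells that express a gene and less RNA per cell cannot be told apart.

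Nfkbie was the member with the largest fall in IkBKO cells. Over all LSK cells it stood at 9.11 and 12.1 CPM in WT cells, against 2.04 and 1.97 CPM in IkBKO. The IkBKO pools held 22.4% and 16.4% of the WT level of their own library, and the genotypes did not overlap. How many of all genes separated the genotypes in this way was not counted, here or below. The log2 fold change was -2.30 ± 0.18 (SE) with a 95% interval of -2.74 to -1.85 (edgeR quasi-likelihood test with library as a block, adjusted p = 0.0028). Nfkbie and Nfkbib were the 2 of 3 members called over all LSK cells, where 13.3% of 14742 tested genes were called in either direction and 6.19% as lower. With scaling to total UMIs the split of calls moved from 913 lower and 1051 higher to 1659 lower and 958 higher, and both members kept their calls. Without the library block no gene of 14742 was called by the same tool (1410 had an unadjusted p under 0.05), and the fold change of Nfkbie was -2.30 with an adjusted p of 0.095. Without WT replicate 2 it was -2.14 (edgeR, adjusted p = 0.16).

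In the stem gate, Nfkbie stood at 10.3 and 11.9 CPM in WT cells, against 3.05 and 2.18 CPM in IkBKO. In the lymphoid gate it stood at 11.7 and 14.0 CPM in WT cells, against 4.02 and 1.77 CPM in IkBKO. In the megakaryocyte gate the values were 5.58 and 12.3 CPM in WT cells, against 3.41 and 2.14 CPM in IkBKO. Both IkBKO pools were below both WT pools in each of these gates. The log2 fold change was -2.12 ± 0.22 in the stem gate (edgeR, adjusted p = 1.9e-04) and -2.23 ± 0.28 in the lymphoid gate (adjusted p = 2.2e-10). It was -1.81 ± 0.46 in the megakaryocyte gate (edgeR, adjusted p = 0.036). Of all genes tested, 4.37%, 5.95% and 0.73% were called as lower in these gates. The lymphoid call was lost without IkBKO replicate 2 (-1.59, adjusted p = 0.16). The megakaryocyte call was lost without any 1 of the 4 pools: the fold change was -2.09 without WT replicate 1, -1.11 without WT replicate 2, -2.09 without IkBKO replicate 1 and -1.30 without IkBKO replicate 2.

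The myeloid gate held little Nfkbie in either genotype. It stood at 5.06 and 5.63 CPM in WT cells (39 and 5 UMIs), against 1.40 and 1.02 CPM in IkBKO. The groups did not overlap and the log2 fold change was -1.97 ± 0.48, but the adjusted p was 0.29 in a gate where 0.138% of genes were called as lower (edgeR). In the erythroid gate the WT pools held 2 and 2 UMIs of Nfkbie and the IkBKO pools 7 and 13, or 2.05 and 10.2 CPM against 1.95 and 2.74 CPM. The IkBKO level was 95.3% of WT in replicate 1 (95% counting interval 18.1% to 940%) and 26.8% in replicate 2 (6.06% to 244%), and the gene was under the low-count filter there, so it was not tested. Without the filter the log2 fold change was -0.83 ± 1.15 (edgeR, adjusted p = 0.95). At this depth no difference was detectable in the erythroid gate.

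Nfkbib also fell, by less than Nfkbie in all LSK cells. It stood at 19.2 and 16.1 CPM in WT cells, against 6.64 and 7.93 CPM in IkBKO, and the groups did not overlap. The IkBKO pools held 34.5% and 49.3% of the WT level, and the log2 fold change was -1.19 ± 0.13 (95% interval -1.51 to -0.86, edgeR, adjusted p = 0.0073). Without the library block it was -1.20 (adjusted p = 0.21). With 1 pool left out the call was lost each time, with fold changes of -0.99 without WT replicate 1, -1.37 without WT replicate 2, -1.17 without IkBKO replicate 1 and -1.23 without IkBKO replicate 2.

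The fall of Nfkbib was called in each of the 5 gates. The stem gate held 17.4 and 14.4 CPM in WT cells, against 7.98 and 8.31 CPM in IkBKO. The lymphoid gate held 17.6 and 15.5 CPM in WT cells, against 9.12 and 8.29 CPM in IkBKO. The megakaryocyte gate held 19.5 and 17.0 CPM in WT cells, against 7.67 and 8.68 CPM in IkBKO. These gates gave log2 fold changes of -0.90 ± 0.14 (edgeR, adjusted p = 0.0023), -0.84 ± 0.19 (adjusted p = 4.4e-04) and -1.09 ± 0.29 (adjusted p = 0.040). The myeloid gate held 23.98 and 22.5 CPM in WT cells, against 6.06 and 7.91 CPM in IkBKO. The erythroid gate held 25.6 and 25.6 CPM in WT cells, against 7.53 and 8.85 CPM in IkBKO. The WT value of replicate 2 there was 5 UMIs from 9 cells, with a counting interval of 8.31 to 59.7 CPM. The cells of the erythroid gate differed between the genotypes in other genes. The 4 globin genes summed to 2499 and 1959 CPM in WT and to 14.2 and 118 CPM in IkBKO (1 of 4 called as lower). Klf1 stood at 136 and 144 CPM in IkBKO, and 5 of 6 myeloid markers were called as higher, as were 167 of all 9345 genes tested. The part of these differences in the fall of Nfkbib was not tested. The log2 fold changes in the myeloid and erythroid gates were -1.79 ± 0.25 (adjusted p = 0.022) and -1.66 ± 0.45 (adjusted p = 0.014). In all 10 pairs of gate and library the IkBKO level was below its own WT level, at 25.3% to 57.6% of it. For the erythroid gate of replicate 2 the counting interval of this share was 13.7% to 112%, which includes no change. Of all genes, 1.67% were called as lower in the erythroid gate, beside the shares given above for the others.

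Several of these calls rested on the tool, the depth or the full set of pools. With cells thinned to 3000 UMIs, a step that bears on the deeper IkBKO cells, Nfkbib did not pass in the stem (-0.55), lymphoid (-1.03), myeloid (-1.48) or megakaryocyte gate (-0.64). With DESeq2 it did not pass in the stem, lymphoid or megakaryocyte gate, where the values were -0.91, -0.85 and -1.11. Left-out pools gave Nfkbib fold changes of -0.75 to -1.10 in the stem gate, -0.72 to -1.01 in the lymphoid gate and -0.94 to -1.30 in the megakaryocyte gate, and none of the 4 refits passed in any of these gates. In the myeloid gate the call was lost without WT replicate 1 (-1.63, edgeR, adjusted p = 0.49) and kept without each of the other pools. In the erythroid gate it was lost without WT replicate 1 (-1.54), WT replicate 2 (-1.66) or IkBKO replicate 1 (-1.59).

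**Figure D1:**
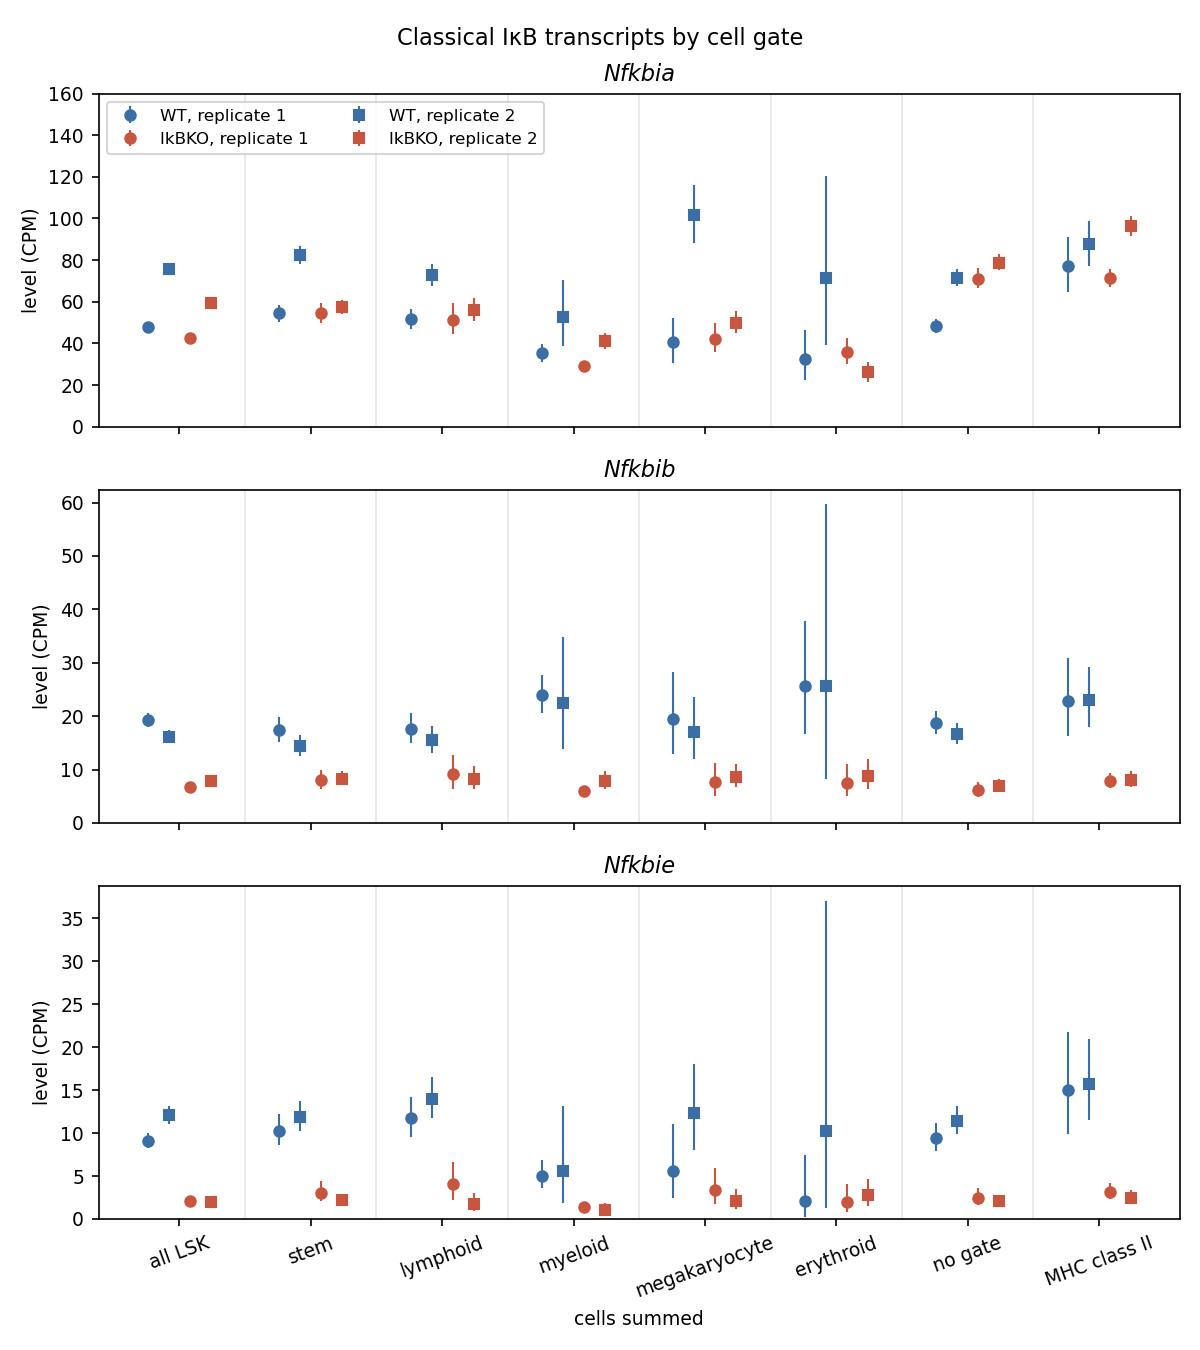
Levels of Nfkbia, Nfkbib and Nfkbie in CPM (vertical axes from 0) in all LSK cells, in the 5 gates, in cells of no gate and in cells with MHC class II RNA. Circles are replicate 1 and squares replicate 2, blue WT and red IkBKO, with 95% counting intervals; red lies under blue for Nfkbib in every class and the symbols of the genotypes overlap for Nfkbia in most classes.

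Nfkbia, the fast feedback member, did not pass the test over all LSK cells or in any of the 5 gates. Over all LSK cells it stood at 47.7 and 76.0 CPM in WT cells, against 42.6 and 59.7 CPM in IkBKO. The IkBKO pool was lower within each library, at 89.3% and 78.6% of WT, but the groups overlapped because both pools of replicate 2 were high. The log2 fold change was -0.17 ± 0.09 with a 95% interval of -0.39 to 0.05 (edgeR, adjusted p = 0.25). Without WT replicate 2 the direction turned (0.12).

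By gate, the stem gate held 54.4 and 82.4 CPM of Nfkbia in WT and 54.6 and 57.5 CPM in IkBKO. The lymphoid gate held 51.6 and 72.8 CPM in WT cells, against 51.5 and 56.3 CPM in IkBKO. The myeloid gate held 35.4 and 52.9 CPM in WT cells, against 29.2 and 41.0 CPM in IkBKO. In these 3 gates the genotypes overlapped, and WT replicate 2 was the highest pool. The log2 fold changes were -0.24 ± 0.12, -0.13 ± 0.11 and -0.29 ± 0.16 (edgeR, adjusted p = 0.26, 0.51 and 1). The megakaryocyte gate held 40.5 and 101.6 CPM in WT cells, against 42.3 and 50.1 CPM in IkBKO, and its fold change of -0.60 ± 0.22 (adjusted p = 0.36) rested on WT replicate 2, without which it was 0.14. The erythroid gate held 32.8 and 71.6 CPM in WT cells, against 36.0 and 26.1 CPM in IkBKO (-0.34 ± 0.31, adjusted p = 0.75). Without WT replicate 2 the direction of Nfkbia also turned in the stem gate (0.041) and the lymphoid gate (0.081).

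Cells with MHC class II RNA, those with at least 3 UMIs of Cd74 and H2-Eb1 together, differed in share between the genotypes. Their own part in the result for Nfkbia was not tested, since the refit below takes out neutrophil cells together with them. Both genes serve antigen presentation by dendritic cells, B cells and monocytes. Such cells made up 4.46% and 6.41% of WT cells and 33.7% and 29.1% of IkBKO cells. They held Nfkbia at 77.2 and 87.7 CPM in WT cells, against 71.3 and 96.3 CPM in IkBKO, above the level of all LSK cells of the same pool in each of the 4 pools. Of 1336 and 1567 MHC class II cells in IkBKO, 587 and 755 lay in no gate and the others in gates. Taking out MHC class II cells and cells with at least 10 UMIs of neutrophil genes removed 200 and 334 WT cells. It removed 1368 and 1577 IkBKO cells, gated cells among them. In the cells that were left, Nfkbia stood at 46.5 and 74.7 CPM in WT cells, against 33.2 and 47.1 CPM in IkBKO. IkBKO was again lower within each library. The log2 fold change there was -0.44 ± 0.11 (edgeR, adjusted p = 0.035, with 6.30% of 14344 genes called as lower). In the megakaryocyte gate the same step gave -0.76 ± 0.16 (adjusted p = 3.9e-04, 1.44% called as lower), and in the stem gate -0.40 (adjusted p = 0.050, just above the threshold, 4.99% called as lower). The lymphoid (-0.23, adjusted p = 0.21), myeloid (-0.10, adjusted p = 1) and erythroid (-0.49, adjusted p = 0.56) gates did not pass, and the myeloid value was nearer 0 than with all cells.

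Other marker lists moved between the genotypes as well. Over all LSK cells 7.13% of genes tested were called as higher and 6.19% as lower, beside the counts below. The 5 monocyte and dendritic markers summed to 351 and 228 CPM in WT cells, against 1421 and 1190 CPM in IkBKO over all LSK cells, and 4 of the 5 were called as higher. The 5 mature neutrophil markers summed to 1333 and 1154 CPM in WT cells, against 166 and 198 CPM in IkBKO, with 3 of 5 called as lower. Immediate-early genes, which respond to handling of cells, summed to 643 and 894 CPM in WT cells, against 272 and 334 CPM in IkBKO, and 8 of 9 were called as lower. Within the stem and lymphoid gates all 9 were called as lower, beside 4.37% and 5.95% of all genes tested there. In each of these 3 lists no marker was at 0 in all pools. For Nfkbib and Nfkbie the fold changes over all LSK cells stayed within -1.17 to -1.28 and -2.28 to -2.41 across the alternatives that kept all pools, among them the one without MHC class II and neutrophil cells. The part of the immediate-early genes in the levels of Nfkbia was not tested.

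Cells in none of the 5 gates showed another order for Nfkbia. They held 48.3 and 71.4 CPM in WT cells, against 71.2 and 78.9 CPM in IkBKO, so here IkBKO was the higher in each library. The genotype effect in these cells exceeded the mean effect of the 5 gates by 0.56 ± 0.18 on the log2 scale (95% interval 0.18 to 0.94, unadjusted p = 0.0059), but the adjusted p was 0.77, with 0.0234% of genes called (edgeR, a comparison chosen after the levels were seen). MHC class II cells made up 49.0% and 32.4% of these ungated cells in IkBKO and 6.03% and 5.08% in WT. With MHC class II and neutrophil cells taken out, the ungated cells held 46.0 and 68.8 CPM of Nfkbia in WT and 41.7 and 51.9 CPM in IkBKO. The ungated MHC class II cells held 79.9 and 103.9 CPM in WT cells, against 105.9 and 142.3 CPM in IkBKO. Nfkbib and Nfkbie stayed low in the same IkBKO cells: ungated MHC class II cells held 6.53 and 6.71 CPM of Nfkbib against 29.4 and 28.9 CPM in WT, and 3.27 and 3.11 CPM of Nfkbie against 15.3 and 21.9 CPM in WT.

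The gates were compared within WT in 1 joint fit over cells of exactly 1 gate. In the levels above, Nfkbib was highest in the erythroid and myeloid gates and lowest in the stem gate in both libraries. Its level differed among the 5 gates (log2 range 0.89, edgeR, adjusted p = 0.0019), as it did for 53.6% of all genes tested. The myeloid gate exceeded the stem gate by 0.89 ± 0.18 on the log2 scale (adjusted p = 3.6e-04) and the lymphoid gate by 0.66 ± 0.18 (adjusted p = 0.0075), in contrasts where 42.5% and 32.6% of genes were called. The erythroid gate exceeded the stem gate by 0.88 ± 0.30 (adjusted p = 0.027, 27.5% of genes called). The myeloid and erythroid gates, the myeloid and megakaryocyte gates, the megakaryocyte and lymphoid gates, and the lymphoid and stem gates did not pass. The last pair differed by 0.22 with a 95% interval of -0.10 to 0.54. The megakaryocyte gate lay below the myeloid gate by -0.61 with an unadjusted 95% interval of -1.15 to -0.07 (adjusted p = 0.11), and passed with doubled gate thresholds (-0.82, adjusted p = 0.035). With scaling to total UMIs, the erythroid gate no longer passed against the stem gate (0.73, adjusted p = 0.063).

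Nfkbie ran the other way in WT, highest in the lymphoid gate and low in the myeloid gate. Its level differed among the gates with a log2 range of 1.61 (edgeR, adjusted p = 0.0080). The myeloid gate lay below the lymphoid gate by -1.34 ± 0.32 on the log2 scale (adjusted p = 0.0024) and below the stem gate by -0.95 ± 0.32 (adjusted p = 0.020). The lymphoid and stem gates did not pass (0.39, 95% interval -0.06 to 0.83), but they did with doubled gate thresholds (0.78, adjusted p = 0.018). The erythroid gate lay lowest in the fit, but with 2 UMIs in each WT erythroid pool above it did not pass against any gate. With doubled thresholds it lay below the lymphoid gate by -2.24 (adjusted p = 0.0096).

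For Nfkbia the gates did not pass together in WT (log2 range 0.91, edgeR, adjusted p = 0.10). Thus 2 of 3 members were called, where 53.6% of all genes tested were. Of its 10 pairs of gates, 1 passed: the erythroid gate lay below the stem gate by -0.91 ± 0.33 (adjusted p = 0.045), with 48 and 7 WT erythroid cells in the fit. In the whole gates of WT replicate 2, cells of other gates among them, the levels were nearer, at 71.6 CPM (erythroid) and 82.4 CPM (stem). The erythroid value there was 14 UMIs from 3 of 9 cells. The myeloid gate lay below the stem gate by -0.35 ± 0.19 (adjusted p = 0.15), and this pair passed with total-UMI scaling (-0.64, adjusted p = 0.014), doubled thresholds (-0.52, adjusted p = 0.027) and gates on scaled UMIs (-0.48, adjusted p = 0.031). It also passed within IkBKO (-0.57, adjusted p = 0.0049). In IkBKO the gates differed for Nfkbia (range 0.78, adjusted p = 0.0016) and Nfkbie (1.30, adjusted p = 0.034). They did not pass for Nfkbib (0.43, adjusted p = 0.38), and 69.2% of all genes were called in this contrast. IkBKO levels of Nfkbib lay between 6.06 and 9.12 CPM in all gates and libraries, against 14.4 to 25.6 CPM in WT.

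Whether the genotype effect differed between gates was tested directly. No member passed, in a fit where 0.125% of genes did. For Nfkbib the effects spanned 0.87 on the log2 scale across the gates (edgeR, unadjusted p = 0.023, adjusted p = 0.73). Its effect in the myeloid gate was more negative than the mean of the other 4 gates by -0.69 ± 0.23 (95% interval -1.15 to -0.22, adjusted p = 1). For Nfkbia the effects spanned 0.50 and for Nfkbie 1.44 (adjusted p = 1 for both). A larger fall of Nfkbib in the myeloid gate is thus not shown.

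**Figure D2:**
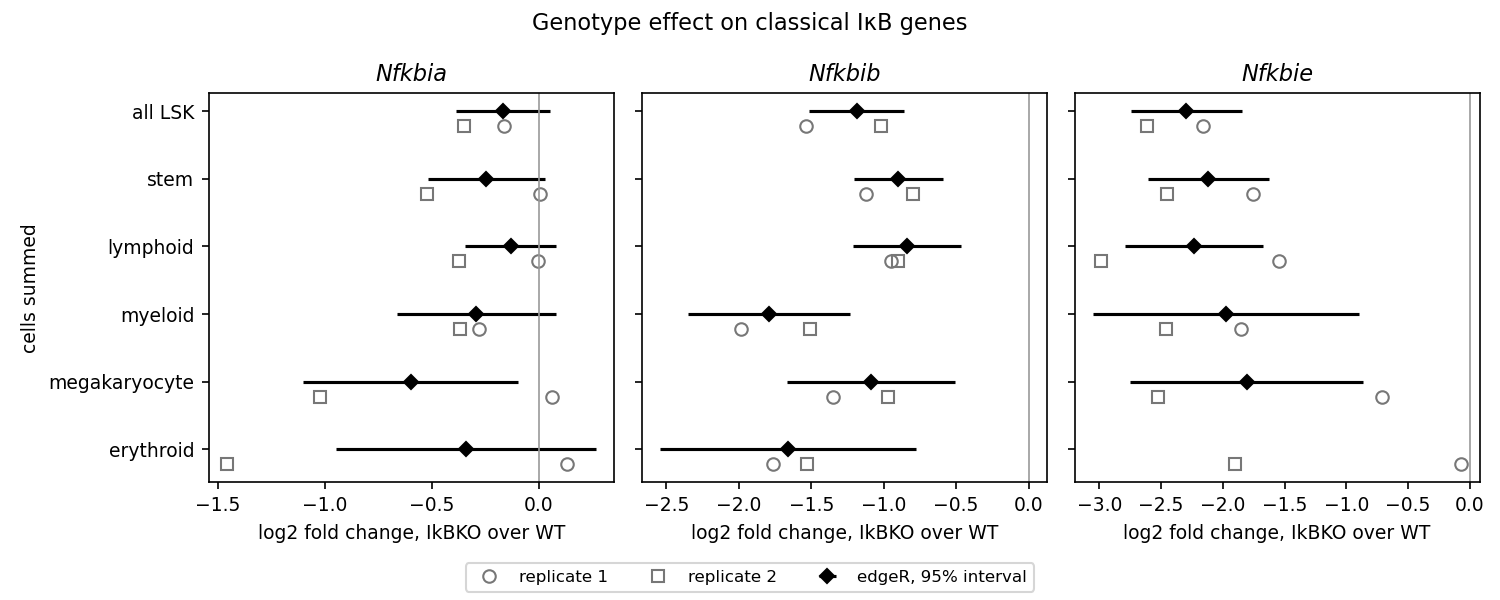
Log2 fold change of IkBKO over WT for the 3 genes in all LSK cells and in each gate, with 95% intervals from edgeR. The intervals of Nfkbib and Nfkbie lie below 0 wherever they were fitted, and Nfkbie has no estimate in the erythroid gate because its count there was under the filter.

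Genes whose WT pattern was most like that of a member were read from 10 WT pools (5 gates in 2 libraries, centred within library), as a description. Pools of one library share its depth and handling. The smallest, the erythroid pool of replicate 2, held 7 cells, and its part in the ranks below was not tested. Of 8023 genes compared, Reep3, Map3k2 and Mbtps2 were closest to Nfkbia (Pearson r of 0.997 for Reep3), Pmf1, Mpc1 and Ndufb8 to Nfkbib (0.98 for Pmf1), and Rhobtb2, Chm and Vangl2 to Nfkbie (0.97 for Rhobtb2). Reep3, Map3k2 and Mbtps2 averaged only 9.69, 4.56 and 4.56 CPM in the erythroid gate, against 42.2, 26.3 and 20.3 CPM in the stem gate. Mpc1 (part of the mitochondrial pyruvate carrier) and Ndufb8 (a subunit of respiratory complex I) shared the rise of Nfkbib from the stem to the myeloid gate: Mpc1 averaged 95.7 CPM in the stem gate and 189 CPM in the myeloid gate. The members were unlike each other, with r of -0.83 between Nfkbib and Nfkbie, -0.44 between Nfkbia and Nfkbib and 0.01 between Nfkbia and Nfkbie.

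Around the classical members, 31 other genes of the NF-κB pathway were read in the same fit. Over all LSK cells 5 of 31 were called as higher, where 7.13% of all genes were, and 2 as lower, where 6.19% were. Their median log2 fold change was 0.03 beside -0.01 over all genes. The atypical IκB genes, whose products act in the nucleus, split: Bcl3, which binds NF-κB p50 and p52, rose by 1.08 ± 0.10 (8.36 and 6.45 CPM in WT, 16.4 and 12.9 CPM in IkBKO, edgeR, adjusted p = 0.0046). Nfkbiz, which encodes IκBζ, fell by 0.71 ± 0.11 (10.4 and 13.3 CPM in WT, 5.65 and 8.05 CPM in IkBKO, adjusted p = 0.019). Nfkbid, which encodes IκBNS, fell by 0.55 ± 0.13 (11.2 and 9.25 CPM in WT, 7.64 and 5.60 CPM in IkBKO, adjusted p = 0.045). None of these 3 genes overlapped between the genotypes, but how many of all genes separated in this way was not counted. DESeq2 called 2 of the 3.

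Of the 5 subunits, the 2 of the non-canonical dimer were called as higher over all LSK cells. Relb stood at 4.60 and 8.11 CPM in WT cells, against 9.14 and 13.0 CPM in IkBKO (0.92 ± 0.14, edgeR, adjusted p = 0.017). Nfkb2 stood at 6.89 and 9.77 CPM in WT cells, against 11.3 and 12.9 CPM in IkBKO (0.65 ± 0.13, adjusted p = 0.033). Nfkb1, Rela and Rel had log2 fold changes of 0.23, -0.08 and -0.17 that did not pass. Among 4 feedback genes, Tnfaip3, which encodes the ubiquitin editor A20, rose by 1.00 ± 0.14 (3.85 and 4.62 CPM in WT, 6.81 and 9.20 CPM in IkBKO, adjusted p = 0.013). Its binding partner Tnip1 rose by 0.36 ± 0.08 (22.6 and 26.2 CPM in WT, 27.1 and 31.5 CPM in IkBKO, adjusted p = 0.040). None of the 5 kinases, 7 activators of the kinases, 5 parts of the ubiquitin ligase or 2 κB-Ras genes passed. For Relb, Nfkb2 and Tnfaip3 the fold changes were 0.52, 0.39 and 0.54 in the stem gate, and none passed there. In the lymphoid gate they were 0.52, 0.46 and 1.04, and in the myeloid gate 1.26, 0.95 and 1.20, where none passed. The genotypes differed in the share of MHC class II cells, whose part in these sums was not tested.

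Within gates fewer of the list were called. In the stem gate Bcl3 was higher and Nfkbiz lower with edgeR, where 804 of all 12975 genes tested were called as higher and 567 as lower. In the lymphoid gate Bcl3 and Tnfaip3 were higher and Nfkbid lower, where 807 of all 11851 genes tested were called as higher and 705 as lower. DESeq2 called 5 of the list over all LSK cells and 0 in either of these gates, with 1 in each at an unadjusted p under 0.05. In the myeloid and megakaryocyte gates 0 of 31 passed with edgeR, and in the erythroid gate 0 of the 27 tested. Few of all genes were called there: 19 higher and 16 lower of 11607 (myeloid), 76 and 76 of 10415 (megakaryocyte), and 167 and 156 of 9345 (erythroid). At an unadjusted p under 0.05 the myeloid, megakaryocyte and erythroid gates had 5, 3 and 3 genes of the list, and DESeq2 called 0 in each, with 0 at an unadjusted p under 0.05. Whether these effects differed from those over all LSK cells was not tested.

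**Figure D3:**
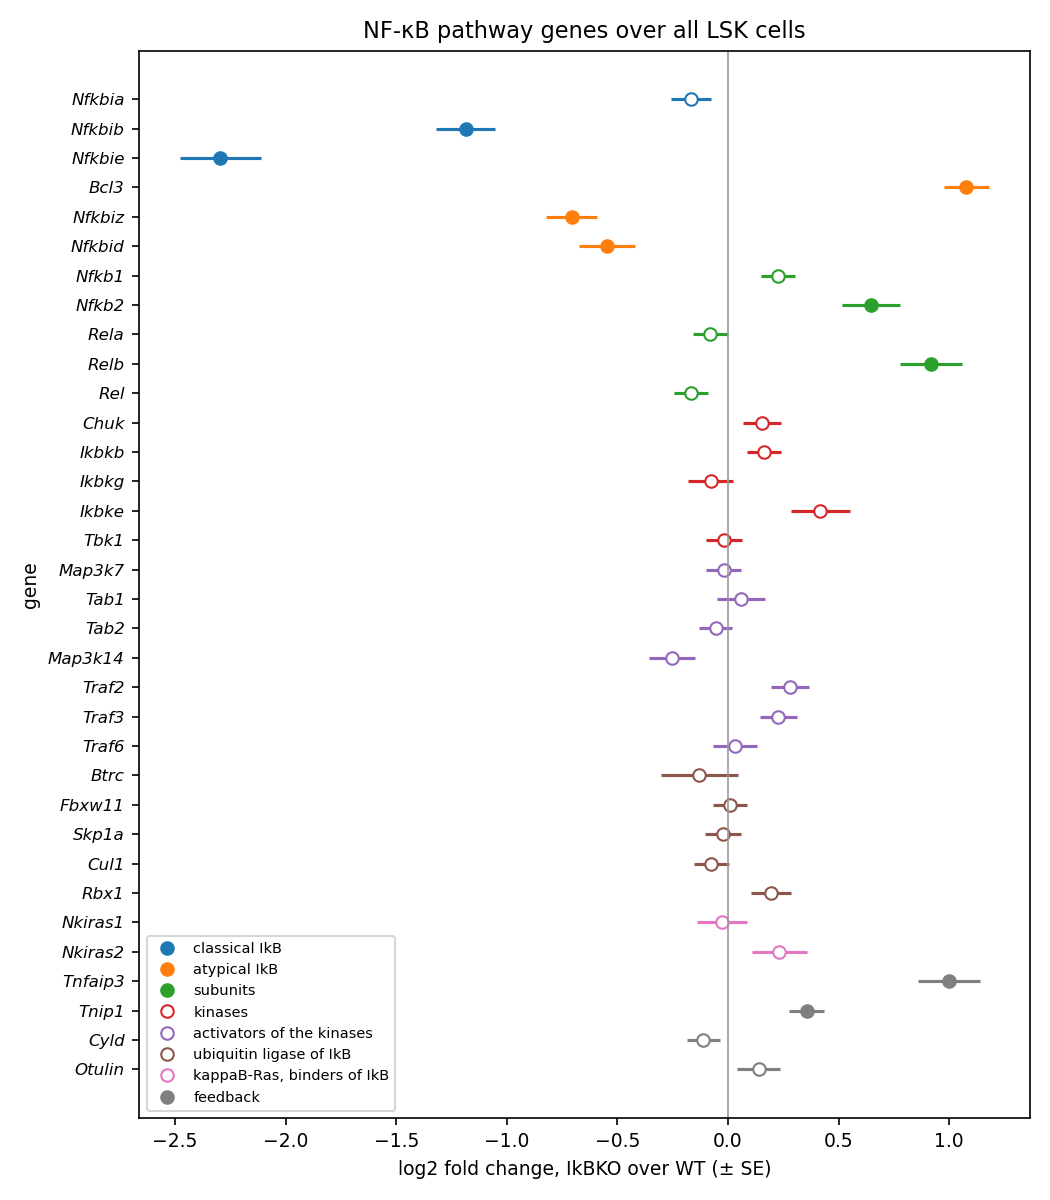
Log2 fold change of IkBKO over WT over all LSK cells, with SE, for the 3 classical IκB genes and 31 other genes of the NF-κB pathway, coloured by role. Filled points passed an adjusted p of 0.05 and open points did not; Nfkbie and Nfkbib lie farthest left, and Bcl3, Tnfaip3 and Relb farthest right.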

How the data were processed

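The deposited matrices hold raw UMI counts per gene and barcode, written by Cell Ranger 6.0.0 per the file headers; the submitters' processing notes name Cell Ranger 7.0, Seurat 4.3.0 and mm10. A deposited table calls barcodes as passing or failing and names their genotype. It left 7683 of 9322 barcodes in replicate 1 and 10346 of 24787 in replicate 2. The 18029 passing cells were used with no doublet caller; the rules behind those calls were not stated. No deposited cell type annotation was used.

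Counts were summed by library and genotype over all cells and within gates. Genes were tested two-sided with edgeR 4.0.16 in R 4.3.3 (quasi-likelihood, robust, TMM, filterByExpr, library as block), with Benjamini-Hochberg adjustment over all genes tested and a threshold of 0.05. Library was a block since WT and IkBKO cells were run together; over 14742 genes same-numbered pools deviated together (r = 0.563). Gates were compared in 1 fit over 24 pools (cells in exactly 1 gate, and ungated cells) with 10 residual degrees of freedom. Intervals on CPM cover counting error only. The steps were tested on counts simulated with the same dispersion for every gene and no difference between libraries. That test does not cover the spread between libraries. DESeq2 1.42.0 was an alternative. Others left out each pool, changed scaling, filter, depth or gates, or took out cells with neutrophil or MHC class II RNA. The members, lists and gates were chosen with earlier results of these data known. Named genes were the 3 members, the called pathway genes, the 3 genes most like each member, and gate markers.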

Additional observations from a re-analysis of the deposited data

Results flagged for a closer look

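In barcodes that failed the quality call and carried no genotype, which no comparison uses, Nfkbia stood at 60.6 CPM in replicate 1 (1236 UMIs in 1639 barcodes), above the 47.7 CPM of WT cells in that library. In replicate 2 it stood at 59.3 CPM, below the 76.0 CPM of WT. Nfkbib stood at 16.3 CPM in such barcodes of replicate 2 (1036 UMIs in 14441 barcodes), next to 16.1 CPM in WT and above 7.93 CPM in IkBKO. In replicate 1 it stood at 12.2 CPM, between 19.2 CPM in WT and 6.64 CPM in IkBKO. These barcodes were shallower, with medians of 8511 and 1969 UMIs.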

How the results depend on the processing

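Limits. Each genotype had 2 pools, and a pool left out removes the block, so lost calls there come with fewer samples; in the other cases below the cause was not tested. Over all LSK cells the genes called as lower and higher were 913 and 1051, 0 and 0 without the block, 589 and 977 with DESeq2, 1659 and 958 with total-UMI scaling, 1385 and 1796 without the filter, and 9 to 77 per direction with 1 pool left out. Thin WT myeloid and erythroid gates limit the depth. Nfkbie kept its call in the stem gate under each alternative run. In the erythroid gate, filtered Nfkbie counts could be fitted only without WT replicate 1 (-1.99).

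With 1 pool left out, Nfkbia ranged from -0.42 to 0.12 over all LSK cells, -0.48 to 0.041 in the stem gate, -0.30 to 0.081 in the lymphoid gate and -1.02 to 0.14 in the megakaryocyte gate. Nfkbib ranged from -1.37 to -0.99 (all LSK), -1.10 to -0.75 (stem), -1.01 to -0.72 (lymphoid), -1.89 to -1.63 (myeloid), -1.30 to -0.94 (megakaryocyte) and -1.69 to -1.54 (erythroid). Nfkbie ranged from -2.42 to -2.14 (all LSK), -2.79 to -1.59 (lymphoid) and -2.09 to -1.11 (megakaryocyte).

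Without the library block (no pairing), calls were lost for Nfkbib over all LSK cells (-1.20) and in the stem (-0.93), lymphoid (-0.87), megakaryocyte (-1.12) and erythroid (-1.64) gates, and for Nfkbie over all LSK cells (-2.30) and in the megakaryocyte gate (-1.74). With DESeq2 they were lost for Nfkbib in the stem (-0.91), lymphoid (-0.85) and megakaryocyte (-1.11) gates and for Nfkbie in the megakaryocyte gate (-1.63). With cells thinned to 3000 UMIs they were lost for Nfkbib in the stem (-0.55), lymphoid (-1.03), myeloid (-1.48) and megakaryocyte (-0.64) gates, and Nfkbia turned in the erythroid gate (0.79). In the megakaryocyte gate, doubled thresholds (-0.95 and -1.54) and cells in exactly 1 gate (-1.15 and -1.95) ended the calls of Nfkbib and Nfkbie. Nfkbia turned in the erythroid gate with scaled gates (0.10) and cells in exactly 1 gate (0.41). It gained a call without the filter in the stem (-0.24) and megakaryocyte (-0.57) gates, with scaled gates in the megakaryocyte gate (-0.70), and without neutrophil and MHC class II cells over all LSK cells (-0.44) and in the megakaryocyte gate (-0.76).

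Between gates, the all-gate range of Nfkbia passed within IkBKO (0.78), with total-UMI scaling (1.05) and with doubled thresholds (0.96), and that of Nfkbib did not pass within IkBKO (0.43). Pairs of gates whose direction turned within IkBKO were, for Nfkbia, lymphoid minus stem (0.044), for Nfkbib, myeloid minus lymphoid (-0.20), megakaryocyte minus lymphoid (-0.090), megakaryocyte minus myeloid (0.11) and erythroid minus myeloid (0.36), and for Nfkbie, erythroid minus stem (0.21), minus myeloid (1.14) and minus megakaryocyte (0.27). None of these turned pairs passed in IkBKO. With total-UMI scaling, Nfkbia megakaryocyte minus lymphoid (0.045) and Nfkbib erythroid minus myeloid (0.13) turned. With doubled thresholds, Nfkbie megakaryocyte minus stem (0.055), Nfkbib megakaryocyte minus lymphoid (-0.15), Nfkbib erythroid minus myeloid (0.0011) and the Nfkbie megakaryocyte interaction (0.11) turned. With scaled gates, Nfkbie megakaryocyte minus stem (0.24), Nfkbia megakaryocyte minus lymphoid (0.017), Nfkbib erythroid minus myeloid (0.0068) and the Nfkbib ungated interaction (0.10) turned.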
